A study of Aegilops tauschii x Triticum turgidum and Aegilops tauschii and Triticum turgidum subsp. durum with 18 samples.

Results

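GAPN and FBP are 2 genes of carbon metabolism, described here across parents, RNA mixes, synthetic hexaploids and a natural hexaploid of wheat. The array holds 61290 probe sets, of which the probe table gives 1 to GAPN and 2 to FBP. For FBP the 1 with signal was followed, so that 2 probe sets are described. Both reached the level required for testing, a log2 value of at least 5 on 2 arrays or more, as did 18189 probe sets in all. The pair was chosen on measured values: GAPN had been singled out for its differences between synthetics, mixes and the natural hexaploid, and FBP for belonging to a list of Calvin cycle genes whose difference from the mixes was known. Differences that involve a synthetic, a mix or the natural hexaploid are therefore given as descriptions, with their standard error (SE) and no test. The 3 differences among the parents are not among the values known to have entered the choice, and they were tested. The levels on all 18 arrays may have been in view, however, so these p-values may not be independent of the choice.

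GAPN encodes the non-phosphorylating glyceraldehyde-3-phosphate dehydrogenase, which oxidises glyceraldehyde 3-phosphate to 3-phosphoglycerate in the cytosol and yields NADPH but no ATP. In plants it lets triose phosphate exported from chloroplasts supply reducing power to the cytosol. FBP encodes fructose-1,6-bisphosphatase, which removes a phosphate from fructose 1,6-bisphosphate. Its plastid form belongs to the Calvin cycle and its cytosolic form to sucrose synthesis. Both genes thus lie on routes that use the triose phosphate made in photosynthesis, GAPN towards oxidation and FBP towards hexose and sucrose. Which form of FBP the probe set measures is not given in the sources used here.

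RNA of whole plants aged 40 days, grown without treatment, was hybridised to 18 Affymetrix wheat arrays in 9 groups of 2. The labels give the same growth conditions for all: a photoperiod of 16 h, 24 °C, 98% hygrometry and 10000 lux. The tetraploid parent was Triticum turgidum cv Joyau (here Joyau), and the diploid parents were Aegilops tauschii spp. strangulata accession 36 (Ae36) and Ae. tauschii spp. tauschii accession 54 (Ae54). The synthetics were hybrids of Joyau with accession 36 at selfed generation 0 (S0_36) and with accession 54 at selfed generations 0 and 1 (S0_54 and S1_54). The 2 mixes held equal amounts of Joyau RNA and of Ae36 RNA (mix36) or Ae54 RNA (mix54), and the natural hexaploid was Triticum aestivum cv Courtot (Courtot). A hexaploid takes more of its genome from the tetraploid parent than from the diploid one, so an equal RNA mix need not be its additive level. How many plants an array holds is not given in the sources used here.

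The 2 arrays of a mix differed by an SD of 0.131 (mix36) and 0.117 (mix54) over the tested probe sets, against 0.460 to 0.671 in the plant groups, so each mix counted as 1 sample and 16 samples entered the fit. For Ae54 replicate 1 the labels conflict, since the organism is given as the hybrid and the extract as mix54, but its profile correlated at 0.971 with Ae54 replicate 2 and at 0.739 with either mix54 array across probe sets. Ae36 replicate 2 stood apart in its hybridization controls, at a mean log2 value of 11.80 against 8.46 to 10.34 on the other arrays. The control probe set for 18S rRNA spanned 4.14 to 8.56 and was highest in S1_54. The labels give 20 µg of RNA for both Ae36 arrays and Ae54 replicate 2, and 40 µg for the others. In comparisons of Ae36 with groups at 40 µg, such as Joyau, RNA amount and line cannot be told apart. The Ae54 arrays, at 40 and 20 µg, differed by 0.16 for GAPN and 0.025 for FBP, but 1 pair cannot show the effect of amount. Group means of petC, a subunit of the photosynthetic cytochrome complex and a shoot marker, were 13.18 to 14.07. In whole plants, fewer cells of a type and less RNA per cell cannot be told apart.

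GAPN was highest in the tetraploid parent and lowest in the synthetic hexaploids. In Joyau the log2 value was 10.15 in replicate 1 and 10.22 in replicate 2. Ae36 stood at 8.77 and 8.75, and Ae54 at 9.41 and 9.57. The replicate arrays of each parent lay close together. Joyau exceeded Ae36 in GAPN by a log2 difference of 1.42 ± 0.31 (SE), or 2.68-fold (limma, adjusted p = 0.00208). Against Ae54 it was at 0.70 ± 0.31 and did not pass (adjusted p = 0.0755, 95% interval 0.02 to 1.37). The accessions differed by -0.73 ± 0.31, Ae36 minus Ae54, which did not pass either (adjusted p = 0.136, interval -1.40 to -0.05). GAPN thus passed in 1 of the 3 parental comparisons. Of all tested probe sets, 59.6% passed between Joyau and Ae36, 55.9% between Joyau and Ae54 and 18.3% between the accessions, so a call between Joyau and Ae36 was the common outcome. The call against Ae54 turned on the estimate of the spread: it passed without S0_36 replicate 3 or replicate 9 (adjusted p = 0.027 in each case).

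**Figure D1:**
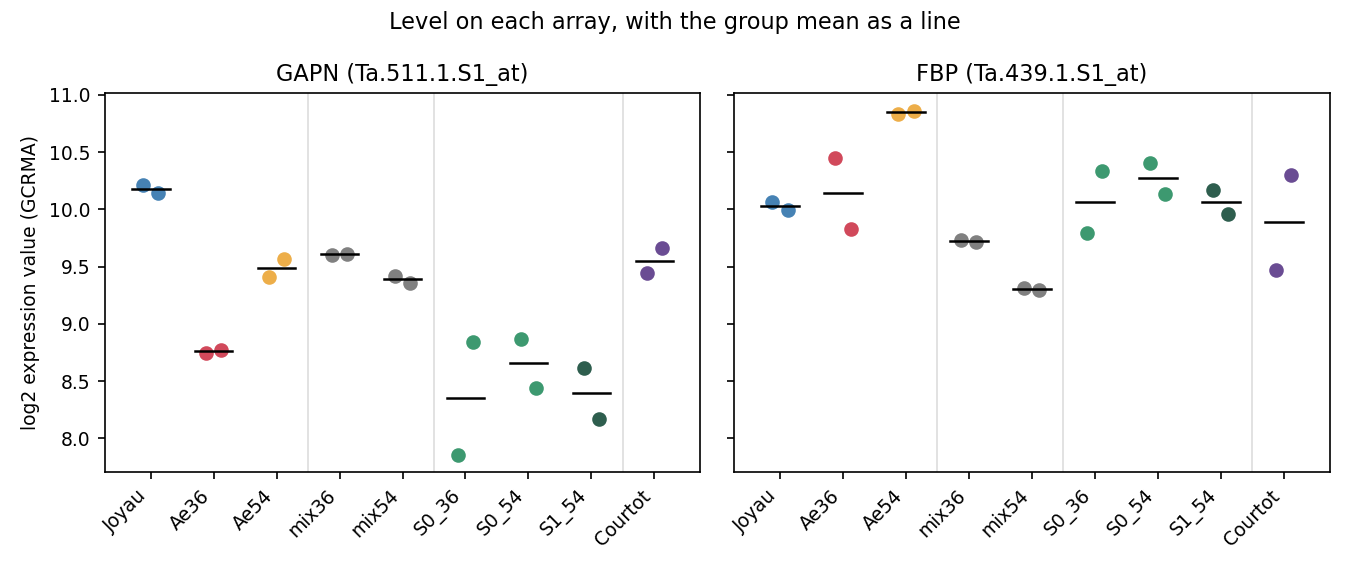
The log2 expression value of GAPN (left) and FBP (right) on each of the 18 arrays, with points for arrays and a line for the mean of the 2 arrays of a group. The GAPN means of the 3 synthetic groups are the lowest, with arrays at 7.86 to 8.87 beside 8.75 and 8.77 in Ae36, whereas FBP is lowest in mix54.

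In the synthetics GAPN stood at or under the level of the lower parent. S0_36 was at 7.86 in replicate 3 and 8.85 in replicate 9. S0_54 was at 8.44 and 8.87 in replicates 3 and 4, and S1_54 at 8.17 and 8.62 in replicates 5 and 7. The 6 synthetic arrays spanned 7.86 to 8.87 around a median of 8.53, while the other 12 arrays began at 8.75, the value of Ae36 replicate 2. Both arrays of S0_54 and both of S1_54 lay below every array of Joyau and Ae54, the parents of that cross. In S0_36 only replicate 3 lay below Ae36, and replicate 9 lay just above it. The share of tested probe sets with both arrays below all parental arrays was 11.3% in S0_54, 19.6% in S1_54 and 13.1% in S0_36. On average S0_36 was at -1.83 ± 0.31 against Joyau and -0.41 ± 0.31 against Ae36. S0_54 was at -1.52 and -0.83 against Joyau and Ae54, and S1_54 at -1.79 and -1.09 (SE 0.31 each). The shoot marker petC had lower means in the synthetics than in the parents, at 13.41 in S0_36, 13.64 in S0_54 and 13.18 in S1_54. The parental means were 13.75 in Joyau, 13.75 in Ae36 and 14.07 in Ae54. The petC means of the mixes were 13.76 in mix36 and 13.62 in mix54. Against its mix, petC was at -0.35 in S0_36, 0.02 in S0_54 and -0.44 in S1_54 (SE 0.25 each). Its part in the GAPN result was not tested.

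Against the mixes GAPN was lower in all 3 synthetics. The mix36 arrays were at 9.60 and 9.61, and the mix54 arrays at 9.42 and 9.36. S0_36 minus mix36 was -1.26 ± 0.37 (SE). Against mix54, S0_54 stood at -0.74 ± 0.37 and S1_54 at -0.999 ± 0.37. These 2 differences share mix54, and both mixes hold Joyau RNA. No synthetic array reached a value of its mix, a separation that 78.3% of tested probe sets showed, in either direction, for S0_36, 77.9% for S0_54 and 81.1% for S1_54. The median difference over all tested probe sets was itself -0.14 for S0_36, -0.06 for S0_54 and -0.27 in S1_54, smaller than that of GAPN in each case. Ranked among all tested probe sets, the GAPN difference had 6.7% of probe sets below it in S0_36, 15.5% in S0_54 and 17.6% in S1_54. The S0_36 value depends on the array: it was -0.76 without replicate 3 and -1.75 without replicate 9. Those 2 arrays lay 0.99 apart, a gap that 5.3% of tested probe sets matched or exceeded between them, with a median gap of 0.232.

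The natural hexaploid did not share the low GAPN level of the synthetics. Courtot was at 9.66 in replicate 1 and 9.45 in replicate 2, above all 6 synthetic arrays and overlapping with Ae54. The difference from the mean of the 3 synthetic groups was 1.09 ± 0.25 (SE), a 2.12-fold higher level. Non-overlap with the 6 synthetic arrays, in either direction, was seen for 31.7% of tested probe sets. Ranked by signed difference among all tested probe sets, 92.8% lay below GAPN, including those that were lower in Courtot. Against the progenitors Courtot was at -0.63 ± 0.31 versus Joyau, 0.79 ± 0.31 versus Ae36 and 0.07 ± 0.31 versus Ae54. By group mean the order was Joyau, mix36, Courtot, Ae54, mix54, Ae36, S0_54, S1_54 and S0_36. Of the 8 steps between neighbours in that order, those from Joyau to mix36 (0.57) and from mix54 to Ae36 (0.63) exceeded the SD of the fit, 0.306, and no other did.

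FBP varied less, and its highest level was in a diploid parent. Joyau was at 9.99 and 10.07 in replicates 1 and 2. Ae54 was at 10.84 and 10.86, the highest values of the gene, while Ae36 was at 9.83 and 10.45. The Ae36 arrays enclosed both Joyau values. FBP was lower in Joyau than in Ae54, at -0.82 ± 0.31 (SE), a 1.77-fold difference that passed (limma, adjusted p = 0.043). Joyau minus Ae36 was -0.11 ± 0.31 (adjusted p = 0.777, 95% interval -0.80 to 0.57), and Ae36 minus Ae54 was -0.71 ± 0.31 (adjusted p = 0.151, interval -1.40 to -0.02). FBP too thus passed in 1 of the 3 comparisons, beside the 55.9% of probe sets that passed between Joyau and Ae54. That call lay near the threshold: it was lost when either array of Joyau, Ae54, S0_54 or S1_54 was left out (adjusted p = 0.0547 to 0.134). Joyau minus Ae36 changed sign with the Ae36 array used, at 0.20 without replicate 2 and -0.42 without replicate 1.

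The synthetics held FBP within the range of their parents or near it. S0_36 was at 9.79 and 10.34 in replicates 3 and 9, and S0_54 at 10.14 and 10.41 in replicates 3 and 4. S1_54 was at 9.96 and 10.17 in replicates 5 and 7. The means of S0_36, S0_54 and S1_54 differed from Joyau by 0.04, 0.25 and 0.04 (SE 0.31 each). Against the diploid parent S0_36 stood at -0.08, S0_54 at -0.58 and S1_54 at -0.79. No synthetic group had both FBP arrays below all parental arrays, as GAPN had in cross 54.

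By group mean the mixes, not the synthetics, held the lowest FBP levels, although Courtot replicate 2, at 9.47, lay below both mix36 arrays. Mix36 was at 9.73 and 9.71, and mix54 at 9.31 and 9.30. Each mix lay below every array of both of its parents, although it was made from RNA of those lines. Such a position was found for 8.00% of tested probe sets in mix36 and 11.1% in mix54. Consequently FBP was above the mix in all 3 synthetics, by 0.34 ± 0.38 in S0_36 (SE), 0.97 ± 0.38 in S0_54 and 0.76 ± 0.38 in S1_54. The synthetic and mix arrays did not overlap for FBP in any of the 3 comparisons, beside the shares of 78.3%, 77.9% and 81.1% given for GAPN. The S0_54 and S1_54 differences share mix54.

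**Figure D2:**
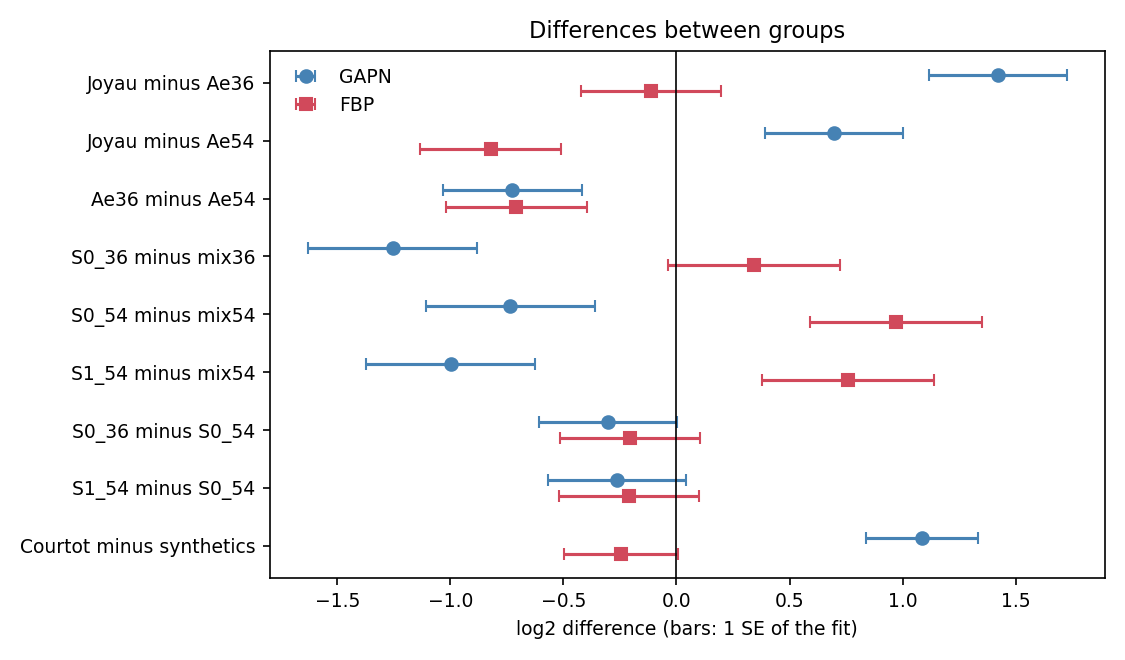
Log2 differences between groups (horizontal axis) for GAPN (circles) and FBP (squares), with bars of 1 SE of the fit. Against the mixes, GAPN stands at -1.26, -0.74 and -0.999 and FBP at 0.34, 0.97 and 0.76.

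Against a mid-parent level computed from the parental arrays on the linear scale, the synthetics were no longer higher in FBP but stayed lower in GAPN. With equal parts of Joyau and Ae54, mix54 itself stood at -1.19 for FBP, and mix36 at -0.38 against the Joyau and Ae36 level. Set against this reference in place of the mix, FBP was at -0.037 in S0_36, -0.22 in S0_54 and -0.43 in S1_54. The S0_36 arrays lay on both sides of the reference, at -0.31 and 0.24, beside a fit SD of 0.310. With 2 parts of Joyau to 1 of the diploid FBP was at -0.012, -0.084 and -0.29, and the arrays of S0_36 and of S0_54 lay on both sides. GAPN stayed below either reference: it was at -1.29 in S0_36, -1.22 in S0_54 and -1.48 in S1_54 with equal parts, and at -1.49, -1.33 and -1.59 with 2 to 1. Mix36 matched the equal-parts level of GAPN, at -0.03, and mix54 lay at -0.48. By group mean the synthetics were above the mixes but not the computed mid-parents in FBP, and below both in GAPN. Both references were set against the same synthetic arrays, whose values entered the choice of GAPN. The references thus do not give separate evidence.

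**Figure D3:**
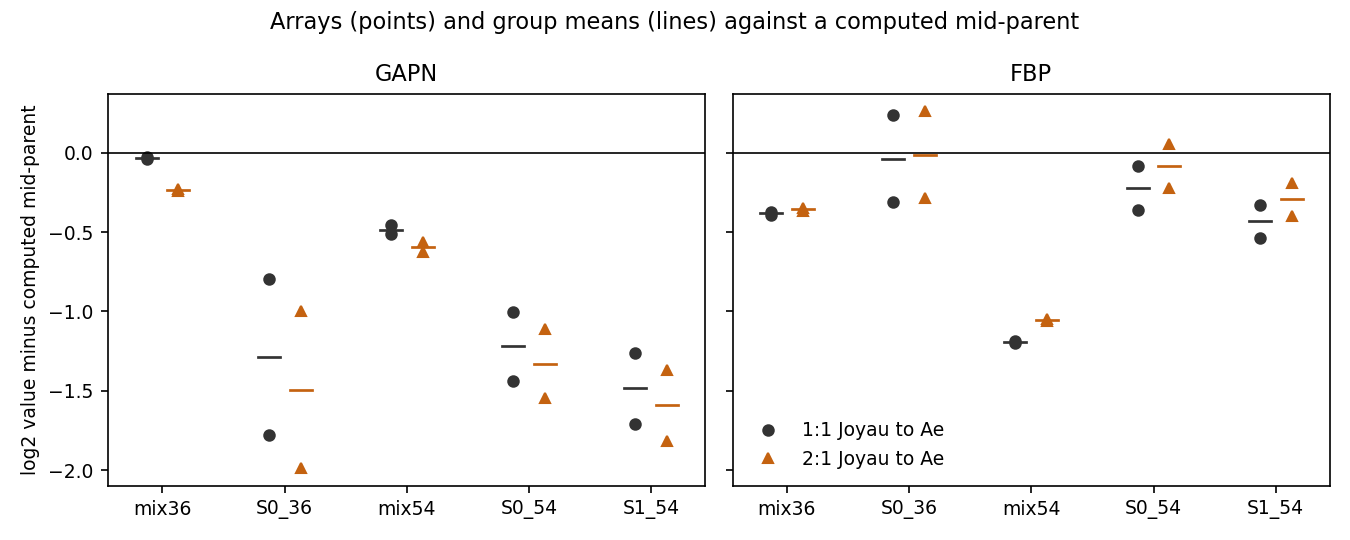
Log2 value minus the computed mid-parent (vertical axis) for both mixes and the 3 synthetic groups, with points for the 2 arrays and lines for their mean. Circles use 1 part of Joyau to 1 of the diploid, triangles 2 parts to 1. For FBP the lowest group is mix54, at -1.19 with equal parts, and for GAPN the synthetics lie at -1.22 to -1.59.

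Between the synthetics themselves neither gene differed by more than about the spread of its arrays. For S1_54 minus S0_54, GAPN was at -0.26 ± 0.31 and FBP at -0.21 ± 0.31 (SE), and the arrays of the 2 generations overlapped for both genes. Over all tested probe sets 64.2% did not overlap, and the median difference was -0.22. For S0_36 minus S0_54, GAPN was at -0.30 ± 0.31 and FBP at -0.21 ± 0.31, again with overlap, where 59.9% of probe sets had none. Without S0_36 replicate 3 these differences turned to 0.19 for GAPN and 0.07 for FBP. The S0 minus mix difference itself, cross 36 minus cross 54, was -0.52 ± 0.53 for GAPN and -0.62 ± 0.54 for FBP.

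In Courtot FBP was the most variable of all groups. Replicate 1 was at 10.30 and replicate 2 at 9.47, a gap of 0.83 that 12.1% of tested probe sets matched or exceeded. The difference from the synthetics was -0.25 ± 0.25 (SE), but 0.17 with replicate 1 alone and -0.66 with replicate 2 alone. Courtot and the synthetics overlapped for FBP. By group mean the order was Ae54, S0_54, Ae36, S0_36, S1_54, Joyau, Courtot, mix36 and mix54. The 6 inner steps were within the fit's SD of 0.310, and the steps from Ae54 to S0_54 (0.58) and from mix36 to mix54 (0.42) exceeded it.

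Over the 14 arrays of plants the log2 values of the 2 genes correlated at r = 0.189 (Spearman 0.218), where arrays of a group share their genotype. In 6 of the 7 plant groups the array with more GAPN also had more FBP, and Ae36 was the exception, but some of these gaps were small, such as 0.025 for FBP in Ae54. Over the same arrays FBP correlated at -0.546 with the mean log2 value of all tested probe sets and at 0.413 with the hybridization controls, where GAPN was at -0.148 and -0.239. The array measure with the highest correlation in size with GAPN was the 3' minus 5' difference of ubiquitin, at -0.465, where FBP was at 0.186. That difference depends on RNA quality and on probe match, and its group mean was lowest in Joyau, at -3.36. The part of these array-wide measures in the results was not tested.

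Among the tested probe sets with a gene name, the one whose pattern was most like GAPN over the 14 plant arrays was CAT1, which encodes catalase, the peroxisomal enzyme that breaks down hydrogen peroxide. The correlation was r = 0.943 (Spearman 0.908) and stayed at 0.908 without the 2 arrays farthest from the GAPN median. Like petC, CAT1 was listed among markers of green shoot tissue, but the 2 did not always go together. Joyau minus Ae36 was 1.80 for CAT1 and 0.006 for petC, and S0_54 minus mix54 was -1.76 and 0.02. Against the mix, S0_36 was at -2.18 for CAT1 and -0.35 for petC, and S1_54 at -2.41 and -0.44. Another CAT1 probe set ranged from 1.76 to 4.01, below the level required for testing. On the probe set followed, CAT1 means were 12.89 in Joyau, 11.09 in Ae36 and 11.92 in Ae54. They were 10.03 in S0_36, 10.88 in S0_54, 10.22 in S1_54 and 12.44 in Courtot. Since CAT1 was taken for its correlation over these arrays, its likeness to GAPN in group order restates that choice. Within the 7 plant groups the order of the 2 arrays was the same for both genes in 4. The next 4 were LOC732707 (r = 0.914), LOC780623 (0.881), LOC543067 (0.867) and LOC542808 (0.866). Over all tested probe sets the median correlation with GAPN was 0.032, and 26 exceeded 0.9. Since the arrays come as 7 pairs of replicates, these correlations rest largely on differences between groups.

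For FBP the nearest was a probe set of LOC606328, with r = 0.908 (Spearman 0.925), and 0.905 without the 2 farthest arrays. In each of the 7 plant groups the array with the higher FBP value also had the higher LOC606328 value. Its group means ran from 11.62 in Ae54 to 9.33 in mix54, the groups that were also highest and lowest for FBP. The other tested probe sets of LOC606328 disagreed with it: the one at 10.66 in Joyau and 2.94 in Ae36 correlated with FBP at -0.461, and the one at 3.14 and 10.46 at 0.437. LOC542880 followed at r = 0.867, LOC542973 at 0.839, LOC780602 at 0.738 and LOC543496 at 0.736. LOC780602 stayed near the level required for testing and reached it on 4 arrays, both of Ae54, 1 of Ae36 and 1 of mix36. Its correlation was 0.461 without the 2 farthest arrays and 0.263 over all 18, and its other tested probe sets were at -0.455 and 0.401. In all, 4 probe sets exceeded 0.9 with FBP.

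**Figure D4:**
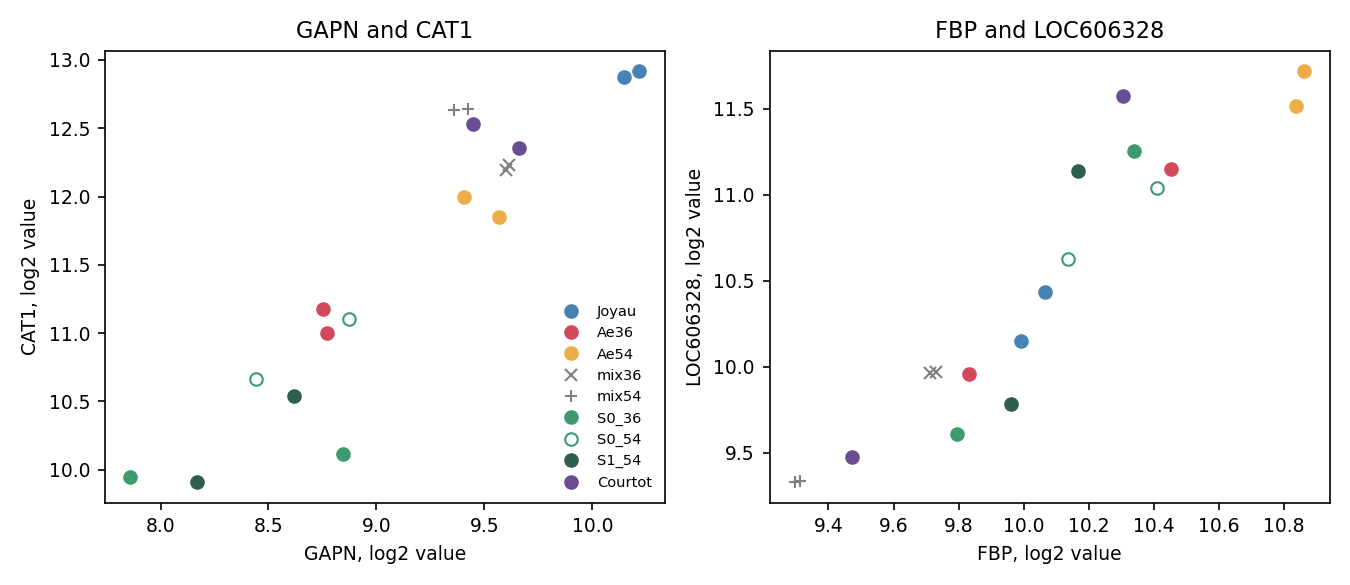
Log2 values of GAPN against CAT1 (left) and of FBP against LOC606328 (right), 1 point per array, with crosses for mix36 and plus signs for mix54. GAPN and CAT1 are low together in the 6 synthetic arrays, and FBP and LOC606328 are highest together in Ae54 and lowest together in mix54.

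Little else of the pathway could be named. The 5 lists of carbon metabolism genes matched 4 probe sets, of which 2, those of GAPN and FBP described above, were tested. The other FBP probe set ranged from 3.55 to 4.70 and stayed below the level required for testing on every array. PFK, a symbol used for phosphofructokinase, which makes fructose 1,6-bisphosphate, was at 2.50 to 2.69 throughout, near the floor of the array. The 5 control probe sets of the phosphorylating GAPDH did not exceed 4.14 on any array, so they gave no level to set beside GAPN.

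Control probe sets for a pair of other enzymes of carbon metabolism were above the floor. They were picked after their levels had been seen and lay outside the fit. G-6-PDH, glucose-6-phosphate dehydrogenase, supplies NADPH through the oxidative pentose phosphate pathway. On its 3' probe set it was at 5.09 and 5.14 in Joyau, 7.62 and 7.00 in Ae36, and 6.16 and 6.12 in Ae54, so Joyau was the lowest parent there. The middle probe set gave the same order, with means of 4.91 in Joyau, 6.45 in Ae36 and 5.60 in Ae54. On the 5' probe set, however, Ae54 was the lowest, at 3.57 against 3.95 in Joyau, both below 5. In the synthetics the 3' means were 6.42 in S0_36, 6.01 in S0_54 and 5.90 in S1_54, beside 6.36 in mix36 and 6.32 in mix54. Sucsyn, sucrose synthase, cleaves sucrose and is given here on its 3' probe set. It was at 7.81 ± 0.08 in Joyau (SD, n = 2), 9.62 ± 0.37 in Ae36 and 9.49 ± 0.23 in Ae54. Its level in S0_54, 9.15 ± 0.16, was above mix54 at 8.60 by 0.55, while S0_36 at 8.98 equalled mix36 at 8.98. S1_54 stood at -0.07 against mix54. The probe sets of G-6-PDH disagreed on S0_36: it was above mix36 by 0.06 on the 3' set, but at 6.01 against 6.26 on the middle set and 4.91 against 5.45 on the 5' set. In S0_54 and S1_54 all 3 sets were below mix54, with 3' differences of -0.31 and -0.42.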

How the data were processed

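Transcript levels of whole wheat plants were measured on 18 one-colour Affymetrix arrays. The deposited table gives a log2 value for every probe set on every array, and GCRMA is the tool named in the submitters' processing notes, without settings. Unexpressed probe sets sit near a floor, and the arrays do not share 1 distribution: the median over tested probe sets ran from 5.89 to 6.30. After 111 control probe sets were left out, the filter (at least 5 on 2 arrays or more) kept 18189. A model with 1 mean per group was fitted to each with limma 3.58.1 in R 4.3.3 (eBayes, two-sided, 7 residual and 3.44 prior degrees of freedom) and adjusted by Benjamini-Hochberg over all of them, with a threshold of 0.05. The scripts were tested on simulated data. Genes were named from a probe table with 1273 entries. The text names both genes, their other probe sets, list members and the 5 named genes with the highest Pearson correlation. The members and lists were chosen with earlier results of these data known. Mid-parents were computed from linear group means. Other normalizations, filters, fits and references, and leaving out each array, were tried. The number of arrays limits the precision, and p-values measure only the spread between arrays. The labels call the 2 arrays of each plant group biological replicates, and those of a mix only replicates. Sequences were not used here.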

Additional observations from a re-analysis of the deposited data

How the results depend on the processing

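Of 144 differences of GAPN and FBP under alternatives that left out no array, 129 kept their verdict or moved by less than 1 SD. The exceptions were few. GAPN between Joyau and Ae54, at 0.70, passed at the same value with separate mix arrays (adjusted p = 0.0412), with only these groups in the fit (0.0299) and with the replicate block (0.0468). FBP between these parents, at -0.82, did not pass without a filter (0.117) or with the replicate block (0.102). Replicate numbers were not shown to pair arrays: deviations of same-numbered arrays correlated at -0.056 to 0.228 between Joyau, Ae36, Ae54 and Courtot. The block changed no other call of either gene, and took the accession comparison from 3322 to 2131 probe sets. That count was 1944 with array weights and 1057 with only both groups in the fit. With a minimum of 7 in place of 5, which tests fewer probe sets, 6308 passed between Joyau and Ae36 and 5921 between Joyau and Ae54, against 10839 and 10170. Without a filter all 4 list members were tested, against 2.

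With computed mid-parents of 1:1 and 2:1 in place of the mixes, GAPN moved to -1.22 and -1.33 in S0_54 and to -1.48 and -1.59 in S1_54. FBP moved to -0.037 and -0.012 in S0_36, to -0.22 and -0.084 in S0_54 and to -0.43 and -0.29 in S1_54. With 1 array left out, 308 of 324 values kept their verdict or moved by less than 1 SD. GAPN against Ae54 ranged from 0.62 to 0.77 and FBP from -0.86 to -0.78. GAPN ranged from -1.75 to -0.76 for S0_36 minus mix36 and from -0.80 to 0.19 for S0_36 minus S0_54, and FBP from -0.66 to 0.17 for Courtot minus the synthetics. The cause of these changes was not tested. Where an arm held 1 array, its spread was taken from the other groups. Of the 5 genes nearest to GAPN, 2 were shared with Spearman ranking and 4 with all 18 arrays, and of those nearest to FBP 4 and 3.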

Other observations

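The mix arrays were not used in choosing the named genes most like GAPN and FBP. The parental arrays were, so a comparison of mix and parents in these genes is only partly separate from that choice. Of the 5 genes nearest to FBP, 4 had both mix54 arrays below all arrays of Joyau and Ae54, as FBP had, where 11.1% of tested probe sets did. LOC542880 was at 9.23 in mix54 against 9.62 in Joyau and 11.44 in Ae54, and LOC606328 at 9.33 against 10.29 and 11.62. LOC542973 was at 12.62 against 13.05 and 13.26. Of the 5 nearest to GAPN, 2 did so. In mix36 none of the 5 nearest to either gene lay below all parental arrays, where 8.00% of tested probe sets did, although FBP did. Genes of like pattern are not independent of each other, and no test was made.

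The 3' minus 5' difference of the ubiquitin control probe sets, which depends on RNA quality and on probe match, stood apart in mix54 and further in Joyau. It was -3.06 in mix54 and -3.36 in Joyau, against -1.81 to -2.51 in the other groups. The FBP means were 9.30 in mix54 and 10.03 in Joyau. The part of the ubiquitin difference in the FBP level of mix54 was not tested.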
